A study of Homo sapiens with 4 samples.

Results

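The mitochondrial carriers of the SLC25 family were compared between AGS cells given 0.01% ornithogalum for 36 h and AGS cells given ethanol, its vehicle, for 36 h, with 2 arrays of biological replicates in each group. Members were the transcript clusters (sets of probes for 1 transcript locus) that the annotation of the Affymetrix Human Gene array pairs with exactly 1 symbol starting SLC25A, with the brightest cluster standing for each gene. The rule found 52 clusters for 49 genes, out of 18418 genes with such a cluster. Of the 49, 46 encode carriers, and the other 3 are the pseudogenes SLC25A51P1 and SLC25A51P4 and the antisense RNA SLC25A5-AS1. SLC25A6 was not analysed here. AGS is an established line of human gastric adenocarcinoma, so all 4 arrays come from 1 line in culture, and all cells received ethanol or a preparation whose own solvent content the labels do not give.

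The values are the log2 signals that the authors deposited, with the 2 groups compared by limma over all 21214 clusters that have a gene symbol. "Higher", "lower", "rose" and "fell" are used of ornithogalum relative to vehicle where limma's two-sided p, adjusted by the Benjamini-Hochberg method over all these clusters, was under 0.05. Array signals of different genes depend on their probes, so levels are compared only within a gene. The labels call the replicates biological, but whether they came from separate experiments is not stated. The p-values cover only variation among these arrays, which may be smaller than that between separate experiments. The median log2 value over tested clusters was 4.48 and 4.62 on the ornithogalum arrays, against 4.71 and 4.70 on the vehicle arrays. The interquartile range was 2.443 and 2.565 on the ornithogalum arrays, against 2.716 and 2.709 on the vehicle arrays. Genes at or above the median signal of tested clusters had a median log2 difference of -0.071, and dimmer genes one of 0.107. The part of this in the carriers' differences was not tested. The pooled SD within a group was 0.258 for ornithogalum and 0.140 for vehicle. The epithelial genes EPCAM, KRT8, KRT18, KRT19, CLDN4 and CLDN7 had log2 values between 6.54 and 10.38 in ornithogalum cells and between 6.74 and 10.59 in vehicle cells. Of these 6, KRT19, an epithelial keratin, fell 2.64-fold (limma's adjusted p = 0.00437), CLDN7, a tight junction claudin, fell 1.70-fold (adjusted p = 0.0213), and 4 did not pass. Of 14 listed markers of leukocytes, fibroblasts, endothelium and erythroid cells, 11 were measured. They lay between 1.44 and 5.42 in ornithogalum cells and between 1.45 and 5.54 in vehicle cells, and 0 of these 11 passed the test. Of 3 markers of brown adipocytes and muscle, UCP1 rose (values beside the uncoupling proteins) and CKM and MYH7 did not pass, with values between 3.29 and 4.60 for the 3 in ornithogalum cells and between 2.86 and 4.04 in vehicle cells. The part of these marker differences in the carriers' results was not tested.

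SLC25 carriers are small proteins of the inner mitochondrial membrane, built from repeats of paired membrane helices, and most exchange a solute of the matrix for one of the cytosol. They bring ADP and phosphate in for ATP synthesis, move citrate, malate, aspartate and glutamate between compartments, and supply the matrix with amino acids, acylcarnitines, cofactors, iron and glutathione. A few members sit elsewhere, such as SLC25A17 in peroxisomes and SLC25A46 in the outer mitochondrial membrane.

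Of the 46 carriers, 2 rose, 11 fell and 33 did not pass the test. SLC25A25, a calcium-regulated carrier that exchanges ATP-Mg for phosphate, rose 4.19-fold, while its relatives SLC25A24 and SLC25A23 fell 1.80-fold and 1.57-fold. Among these 46 the largest fall was in SLC25A46, 3.01-fold, followed by the glutathione carrier SLC25A40 (2.17-fold) and the aspartate/glutamate carrier SLC25A12 (2.08-fold). UCP2, a family member whose symbol the rule leaves out, fell 4.92-fold, and a dimmer cluster annotated to SLC25A37 fell 4.69-fold. The carriers of ADP, ATP and phosphate that were measured did not pass. Over all tested clusters limma called 19.2%, 6.57% higher and 12.6% lower, and over all genes by their brightest cluster 19.9%, 6.99% higher and 12.9% lower. Calls were more frequent among bright clusters: 11 of the 30 carriers at or above the median signal of tested clusters were called, where 31.9% of such genes were, and 2 of the 16 dimmer carriers, where 7.85% were. The carriers' median log2 difference was -0.0066, against 0.035 over all tested clusters. Centring each array on its median raised every difference by 0.16 on the log2 scale, which put the carriers' median at 0.15 and that of all clusters at 0.20, and gave 3 carriers higher and 11 lower. No cluster was called in a fit that lacked either vehicle array, which leaves 1 vehicle array. The carriers' median log2 difference was -0.049 without vehicle replicate 1 and 0.010 without vehicle replicate 2. With all 4 arrays 18 of the 46 carriers had an unadjusted limma p under 0.05, where 33.75% of tested clusters did. Without ornithogalum replicate 1 the carriers' median log2 difference was -0.046, and without ornithogalum replicate 2 it was -0.065. In both fits, which leave 1 ornithogalum array, calls over all tested clusters were more frequent than with all 4 arrays. The carriers gained were SLC25A17, SLC25A33, SLC25A36, SLC25A38 and SLC25A48 without the first, and SLC25A1, SLC25A29, SLC25A31, SLC25A41 and SLC25A52 without the second, while SLC25A32 was lost without the first.

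**Figure D1:**
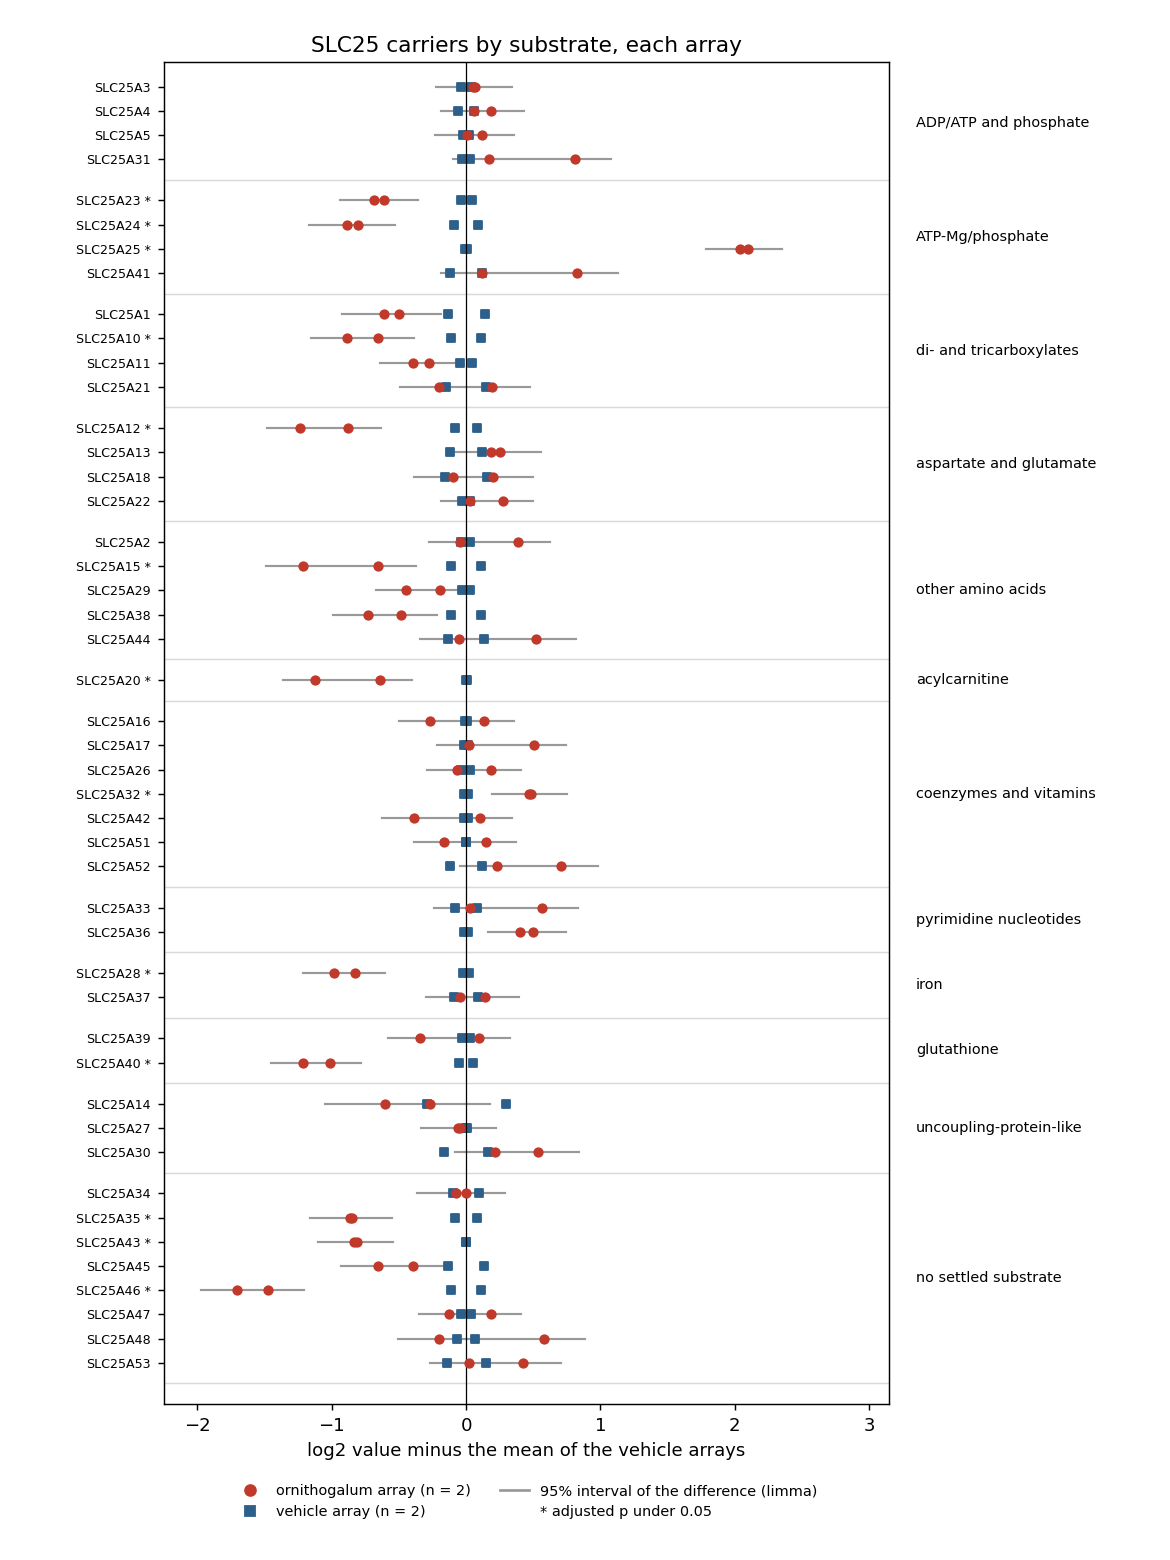
Each row is a carrier, grouped by substrate, and the horizontal axis gives the log2 value on each array minus the mean of the vehicle arrays (red circles, ornithogalum; blue squares, vehicle; grey line, limma's 95% interval of the difference; asterisk, adjusted p under 0.05). SLC25A25 stands apart on the right at a difference of 2.07, and SLC25A46 on the left at -1.59.

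The stretches of 250 bases before a listed transcript start are shown for 5 carriers that the results turn on, the 3 called ATP-Mg/phosphate carriers and the carriers with the 2 largest falls. Sequences are from RefSeq on GRCh38.p14, written 5′ to 3′ toward the gene. Capitals mark matches, on either strand, to 4 of the 14 motifs searched, the cAMP response element TGACGTCA, the NRF1 motif, the E-box CACGTG and the ETS motif CCGGAAGT. SLC25A25 is at chr9:128098257-128098506 (plus strand), SLC25A24 at chr1:108200344-108200593 (minus strand), SLC25A23 at chr19:6459793-6460042 (minus strand), SLC25A46 at chr5:110738757-110739006 (plus strand) and SLC25A40 at chr7:87876361-87876610 (minus strand).
SLC25A25: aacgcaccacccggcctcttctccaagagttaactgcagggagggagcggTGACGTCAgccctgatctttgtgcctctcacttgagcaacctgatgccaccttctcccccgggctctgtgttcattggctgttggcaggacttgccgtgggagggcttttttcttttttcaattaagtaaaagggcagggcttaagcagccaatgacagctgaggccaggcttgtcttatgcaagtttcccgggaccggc
SLC25A24: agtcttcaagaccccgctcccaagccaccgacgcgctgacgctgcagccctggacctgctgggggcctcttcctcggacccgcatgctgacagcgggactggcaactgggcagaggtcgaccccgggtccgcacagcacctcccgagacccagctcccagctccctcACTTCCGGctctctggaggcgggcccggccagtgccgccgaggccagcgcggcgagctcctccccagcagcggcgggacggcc
SLC25A23: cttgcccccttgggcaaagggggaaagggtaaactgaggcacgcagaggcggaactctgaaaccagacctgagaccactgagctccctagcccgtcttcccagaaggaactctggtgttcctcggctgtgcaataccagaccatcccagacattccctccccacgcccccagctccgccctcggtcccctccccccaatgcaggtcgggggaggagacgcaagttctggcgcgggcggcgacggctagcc
SLC25A46: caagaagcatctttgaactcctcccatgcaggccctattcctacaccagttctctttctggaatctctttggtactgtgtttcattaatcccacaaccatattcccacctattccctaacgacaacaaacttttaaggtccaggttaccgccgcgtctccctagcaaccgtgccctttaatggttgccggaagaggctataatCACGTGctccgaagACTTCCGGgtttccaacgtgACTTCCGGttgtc
SLC25A40: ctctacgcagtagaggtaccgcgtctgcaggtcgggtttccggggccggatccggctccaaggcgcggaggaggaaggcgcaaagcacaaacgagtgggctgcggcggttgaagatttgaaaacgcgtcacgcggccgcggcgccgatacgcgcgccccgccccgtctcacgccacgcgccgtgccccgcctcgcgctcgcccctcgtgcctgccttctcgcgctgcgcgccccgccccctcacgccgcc

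The SLC25A25 stretch, 1 of 3 listed for the gene and printed because it holds a match, has a TGACGTCA whose first base lies 200 bases before the start. The other SLC25A25 starts have no match to the 4 motifs. This element was found in 3 of the 39 carriers with a listed start (SLC25A25, SLC25A33 and SLC25A36), and in 2.03% of all genes with one. In the SLC25A46 stretch an E-box begins 47 bases before the start and ETS matches begin 33 and 13 bases before it, and the SLC25A24 stretch has an ETS match 83 bases before its start, while its other listed start has none. ETS matches were found before 4 of the 39 carriers, against 4.13% of genes, and E-boxes before 8, against 7.73%. The NRF1 motif, known from promoters of nuclear genes for mitochondrial proteins, was found before SLC25A3, SLC25A11, SLC25A31 and SLC25A52 and before 6.20% of genes. Of the 11 called carriers with a listed start, 0 had it, which is near that share for so few genes. The cAMP response element was found before 1 of these 11, an E-box before 1 and an ETS match before 2. Neither the SLC25A23 nor the SLC25A40 stretch matched any of the 4 motifs. A GC box, GGGCGG, was found before 29 of the 39 carriers and before 46.2% of genes, a CCAAT box (CCAAT) before 19 and 37.0%, and a TATA box (TATAAA) before 3 and 13.0%. The other 7 motifs (TGACGT, which lies inside the cAMP response element, the ERR motif TCAAGGTCA, the FOXO motif GTAAACA, the AP-1 motif TGANTCA, the C/EBP-ATF motif TGATGNAA, the nuclear receptor core AGGTCA, which lies inside the ERR motif, and that of YY1) were found before 0 to 5 carriers and before 0.304% to 14.6% of genes. A match describes these letters and is not a measured binding site.

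The ATP-Mg/phosphate carriers, which adjust the adenine nucleotide pool of the matrix in response to cytosolic calcium, went in both directions. SLC25A25 had log2 values of 6.36 and 6.29 in ornithogalum cells, against 4.25 and 4.27 in vehicle cells. Its groups lay far apart compared with the spread inside either, and the difference was 2.07 (SE 0.11, limma's adjusted p = 0.00336). SLC25A24 had 5.66 and 5.74 in ornithogalum cells, against 6.63 and 6.45 in vehicle cells (difference -0.85, SE 0.13, adjusted p = 0.0127). SLC25A23 had 4.52 and 4.59 in ornithogalum cells, against 5.24 and 5.16 in vehicle cells (difference -0.65, SE 0.11, adjusted p = 0.0202). In both of these genes the ornithogalum arrays lay below both vehicle arrays. SLC25A41, a relative without the calcium-binding domain, had 4.19 and 3.48 in ornithogalum cells, against 3.25 and 3.48 in vehicle cells, and its difference of 0.47 did not pass (adjusted p = 0.268). Testing all clusters of the table, named or not, gave SLC25A23 an adjusted p of 0.0554.

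**Figure D2:**
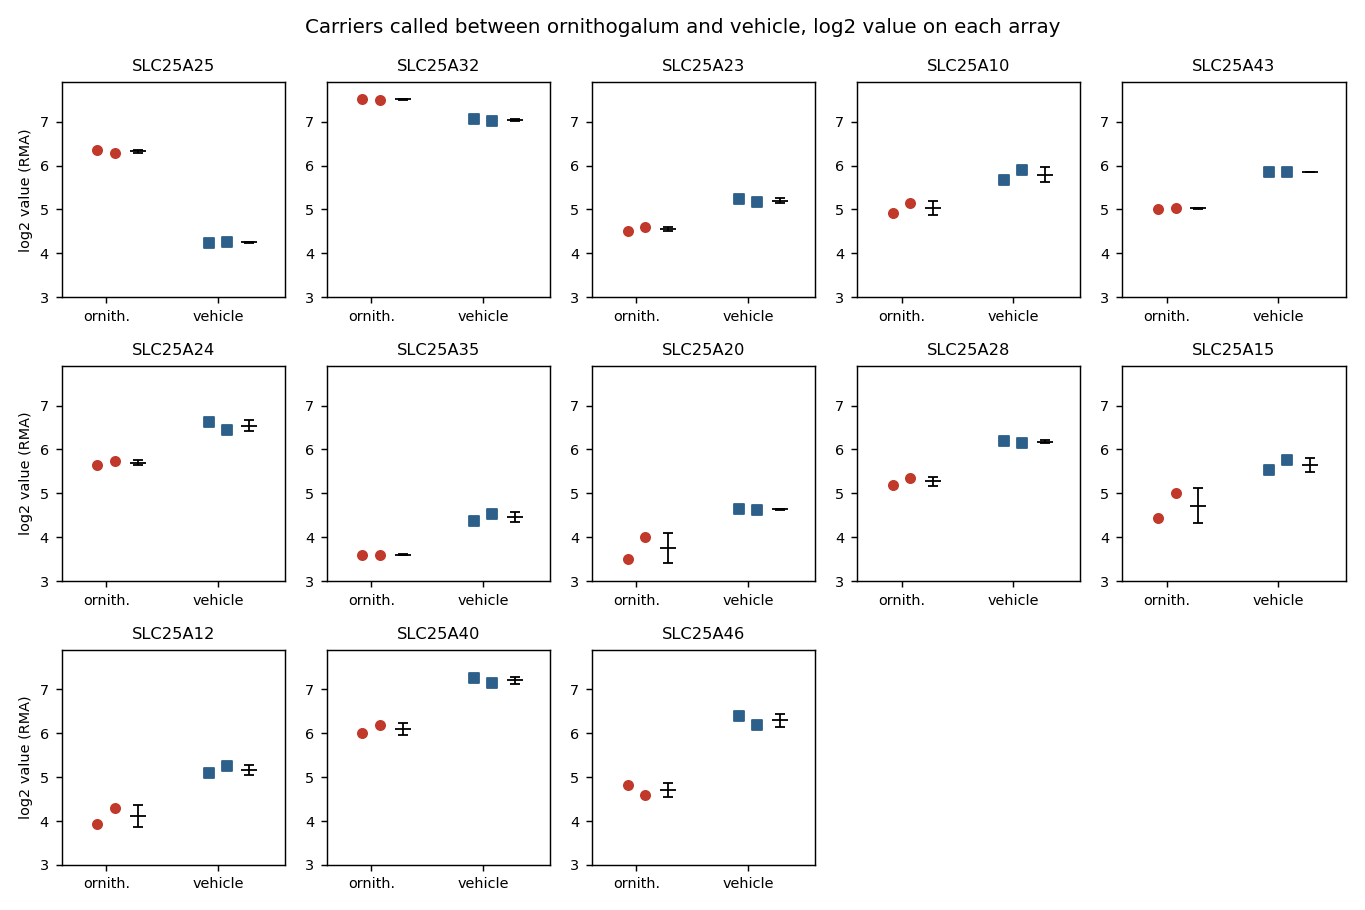
Log2 values of the 13 called carriers, ordered by difference, with a point for each ornithogalum array (red circles, left) and vehicle array (blue squares, right) and the mean with its SD in black (n = 2). Both ornithogalum arrays lie above both vehicle arrays for SLC25A25 and SLC25A32 and below them in the other 11 panels.

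None of the 4 measured carriers that serve ATP synthesis passed the test. SLC25A3 imports phosphate, and SLC25A4, SLC25A5 and SLC25A31 exchange ADP for ATP. SLC25A5 had 9.59 and 9.69 in ornithogalum cells, against 9.56 and 9.60 in vehicle cells, a difference of 0.062 with a 95% interval of -0.23 to 0.36. SLC25A3 had 8.50 and 8.48 in ornithogalum cells, against 8.40 and 8.47 in vehicle cells (difference 0.059, interval -0.23 to 0.34). For SLC25A4 the difference was 0.12 (interval -0.19 to 0.43). SLC25A31, the form known from testis, was at 2.83 and 2.19 in ornithogalum cells, against 1.99 and 2.05 in vehicle cells. Its groups did not overlap, and its difference of 0.49, the highest among the carriers that were not called, had an interval of -0.10 to 1.08 (adjusted p = 0.207). These intervals leave out a change of 2-fold for SLC25A3, SLC25A4 and SLC25A5, but not for SLC25A31. The difference of SLC25A31 was 0.81 without ornithogalum replicate 2 and 0.17 without ornithogalum replicate 1, so its size depended on which array was kept.

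Among carriers of di- and tricarboxylates, which pass citric acid cycle intermediates through the membrane, 1 of 4 fell and 0 rose. SLC25A10, which exchanges malate or succinate for phosphate and sulphur-containing anions, had 4.91 and 5.14 in ornithogalum cells, against 5.68 and 5.91 in vehicle cells (difference -0.77, SE 0.15, adjusted p = 0.0264). SLC25A1, which exports citrate for fatty acid and sterol synthesis, had 6.62 and 6.74 in ornithogalum cells, against 7.10 and 7.37 in vehicle cells (difference -0.55, SE 0.14). Its groups did not overlap, and its adjusted p of 0.0570 missed the threshold. SLC25A11, the oxoglutarate/malate carrier of the malate-aspartate shuttle, had a difference of -0.34 (adjusted p = 0.119), and SLC25A21, which carries oxoadipate and related acids, one of -0.0069. SLC25A1 passed under 4 of the 15 other settings, among them brighter clusters only (adjusted p = 0.0173), and SLC25A10 did not pass with all clusters tested (0.0687).

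The 2 aspartate/glutamate carriers differed in their calls. SLC25A12 (aralar) had 3.93 and 4.29 in ornithogalum cells, against 5.09 and 5.25 in vehicle cells (difference -1.06, SE 0.17, adjusted p = 0.0145). SLC25A13 (citrin) had 7.23 and 7.16 in ornithogalum cells, against 7.09 and 6.86 in vehicle cells, a difference of 0.22 with an interval of -0.12 to 0.56. Both proteins export aspartate for the malate-aspartate shuttle, and the difference between their changes was not tested. SLC25A22 and SLC25A18, which carry glutamate with a proton, had differences of 0.16 (interval -0.19 to 0.50) and 0.053 (interval -0.39 to 0.50).

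Of the other amino acid carriers, SLC25A15, which exchanges ornithine and citrulline for the urea cycle, fell. It had 4.44 and 5.00 in ornithogalum cells, against 5.54 and 5.76 in vehicle cells (difference -0.93, SE 0.22, adjusted p = 0.0431). The ornithogalum arrays were 0.56 apart, which is wider than in most called carriers, though both lay below the vehicle arrays. After quantile normalization its adjusted p was 0.0510, and with all clusters tested 0.0989. SLC25A38, which brings glycine in for haem synthesis, had 5.91 and 5.66 in ornithogalum cells, against 6.50 and 6.28 in vehicle cells (difference -0.61, SE 0.15, adjusted p = 0.0511). The groups of SLC25A38 did not overlap, and it passed under 6 of the 15 other settings. SLC25A29, a carrier of basic amino acids, had a difference of -0.32, SLC25A2, the second ornithine carrier, 0.17, and SLC25A44, which imports branched-chain amino acids, 0.24.

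SLC25A20, which brings acylcarnitines into the matrix for fatty acid oxidation, fell. Its log2 values were 3.51 and 3.99 in ornithogalum cells, against 4.64 and 4.63 in vehicle cells (difference -0.88, SE 0.19, adjusted p = 0.0335). The vehicle arrays were nearly equal and the ornithogalum arrays were 0.48 apart. With all clusters tested the adjusted p was 0.0821.

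Carriers of coenzymes and vitamins mostly did not pass, and 1 of 7 rose. SLC25A32, which supplies folate to the matrix, had 7.52 and 7.51 in ornithogalum cells, against 7.06 and 7.03 in vehicle cells. Its difference was small, 0.47 (SE 0.11, 1.39-fold, adjusted p = 0.0422), with both ornithogalum arrays above both vehicle arrays. This call was lost with the replicate number as a block (adjusted p = 0.0910), without ornithogalum replicate 1 (0.0545) and with all clusters tested (0.0946). The differences of SLC25A16, linked to coenzyme A, SLC25A42, which carries coenzyme A, and SLC25A51, which carries NAD, were -0.072, -0.14 and -0.0063. SLC25A17, the peroxisomal carrier of coenzyme A and related cofactors, SLC25A26, which carries S-adenosylmethionine, and SLC25A52, a second NAD carrier, had 0.26, 0.060 and 0.47. SLC25A51, SLC25A52 and the SLC25A51 pseudogenes are close copies of each other, so their probes may share signal and their values are uncertain. SLC25A51P4 had 3.70 and 3.50 in ornithogalum cells, against 3.21 and 3.20 in vehicle cells (difference 0.40, adjusted p = 0.0944), SLC25A51P1 had a difference of 0.20 and SLC25A5-AS1 one of -0.15, and none of these 3 passed.

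The pyrimidine nucleotide carriers, which supply building blocks for mitochondrial DNA and RNA, did not pass. SLC25A36 had 7.41 and 7.50 in ornithogalum cells, against 7.02 and 6.99 in vehicle cells (difference 0.45, SE 0.11, adjusted p = 0.0524). Its groups did not overlap, and it passed under 7 of the 15 other settings, median centring (0.0258) among them. SLC25A33 had 5.09 and 5.63 in ornithogalum cells, against 5.15 and 4.98 in vehicle cells, so its groups overlapped (difference 0.30). A second cluster that the annotation ties to SLC25A33 gave 0.16, and what that cluster measures was not tested.

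Of the mitoferrins, which carry iron for haem and iron-sulphur clusters, SLC25A28 (mitoferrin 2) fell. It had 5.19 and 5.35 in ornithogalum cells, against 6.20 and 6.16 in vehicle cells (difference -0.91, SE 0.12, adjusted p = 0.00926). SLC25A37 (mitoferrin 1) had 7.04 and 7.23 in ornithogalum cells, against 6.99 and 7.17 in vehicle cells, a difference of 0.048 with an interval of -0.30 to 0.40. A dimmer cluster that the annotation ties to SLC25A37 through a single transcript record, not through its RefSeq mRNA, went another way. It had 3.08 and 2.79 in ornithogalum cells, against 5.07 and 5.27 in vehicle cells (difference -2.23, SE 0.15, 4.69-fold lower, adjusted p = 0.00336). The mean of both clusters gave -1.09 (adjusted p = 0.00607), so the direction for SLC25A37 depends on which probes stand for it, and what the dimmer cluster measures was not tested.

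SLC25A39 and SLC25A40 import glutathione, the main antioxidant thiol of the matrix. SLC25A40 had 6.00 and 6.20 in ornithogalum cells, against 7.27 and 7.16 in vehicle cells (difference -1.12, SE 0.13, adjusted p = 0.00700). For SLC25A39 the values were 7.17 and 6.73 in ornithogalum cells, against 7.04 and 7.10 in vehicle cells, so its groups overlapped, and its difference was -0.12 with an interval of -0.58 to 0.33. The difference between the changes of these 2 genes was not tested.

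The uncoupling-protein-like members SLC25A14, SLC25A27 and SLC25A30, whose solutes in cells are less settled, had differences of -0.44, -0.054 and 0.38, and 0 of 3 passed. Of 8 members with no settled substrate, 3 fell and 0 rose. SLC25A46, which shapes mitochondrial membranes from the outer membrane, had 4.82 and 4.59 in ornithogalum cells, against 6.40 and 6.18 in vehicle cells. That is a difference of -1.59 (SE 0.15, adjusted p = 0.00455), with the groups wide apart. SLC25A35 had 3.59 and 3.60 in ornithogalum cells, against 4.37 and 4.53 in vehicle cells (difference -0.86, SE 0.12, adjusted p = 0.0108). SLC25A43, whose gene is on the X chromosome, had 5.01 and 5.04 in ornithogalum cells, against 5.85 on both vehicle arrays (difference -0.82, SE 0.11, adjusted p = 0.00931). SLC25A45 had a difference of -0.52 (adjusted p = 0.0843) and SLC25A34, SLC25A47, SLC25A48 and SLC25A53 lay between -0.038 and 0.22.

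Over all 46 carriers the groups did not overlap in 28, 11 higher and 17 lower, where 62.5% of genes by their brightest cluster did not overlap, 32.0% higher and 30.5% lower. The 33 carriers that were not called had differences between -0.61 and 0.49. Under the other settings SLC25A25, SLC25A46, SLC25A40, SLC25A12, SLC25A24, SLC25A28, SLC25A35 and SLC25A43 passed in each one that tested them, apart from the fits without a vehicle array. SLC25A25 then had an adjusted p of up to 0.0612, and SLC25A46 of up to 0.0652. All 13 called carriers kept their direction under the 15 other settings that tested them.

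**Figure D3:**
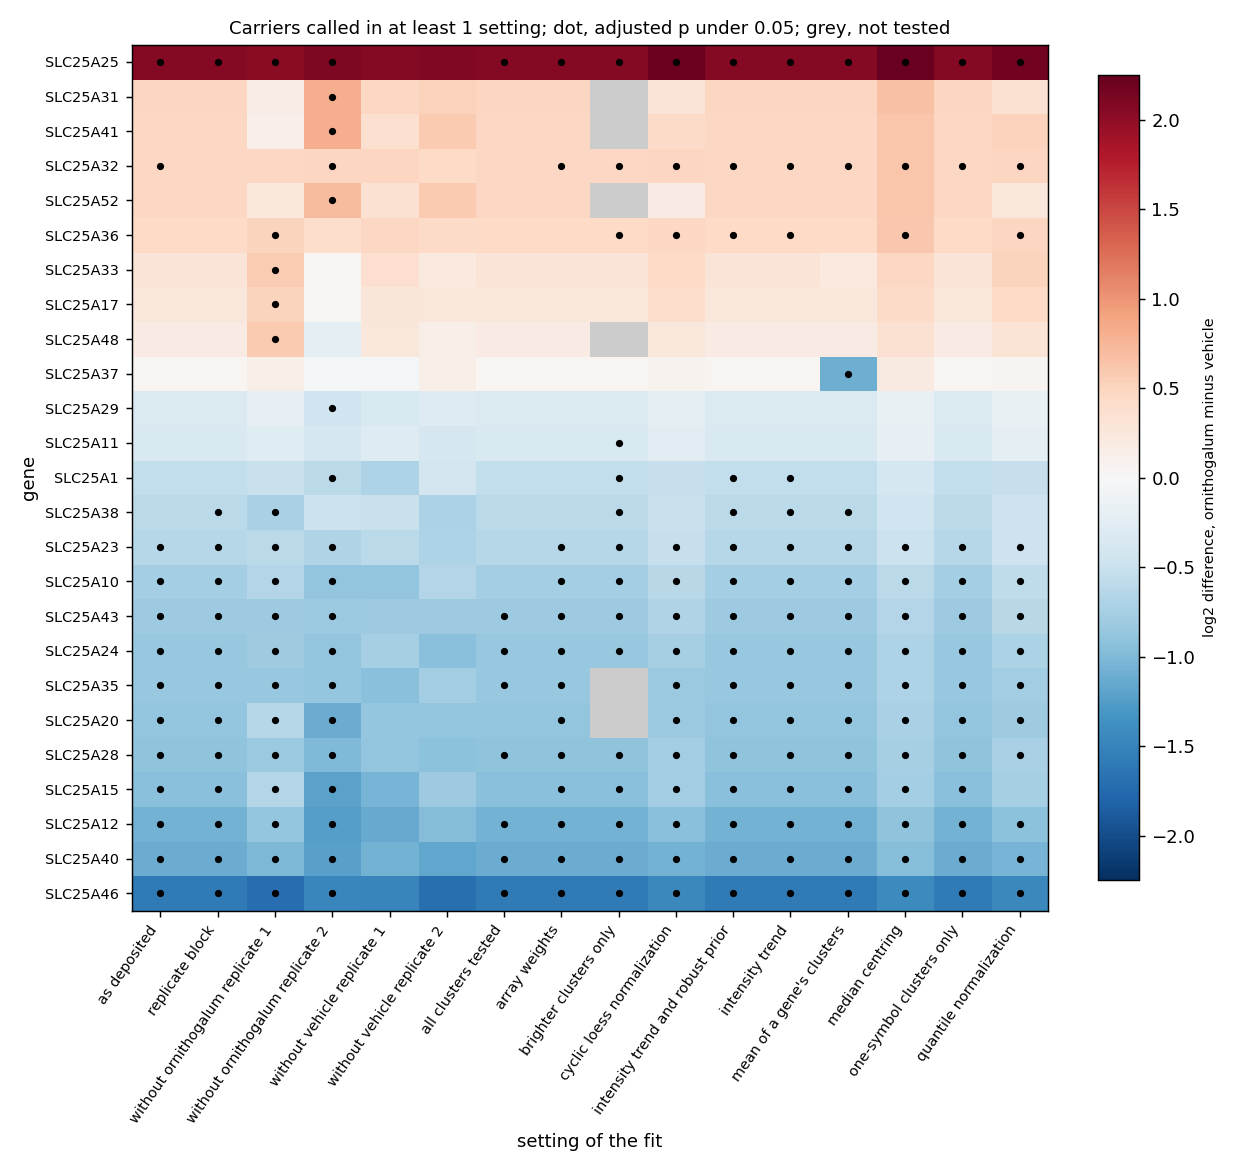
Log2 difference of each carrier called in at least 1 fit (rows) under the deposited values and 15 other settings (columns), in colour, with a dot where the adjusted p was under 0.05 and grey where the carrier was not tested. SLC25A37 turns negative and is called where its clusters are averaged, and the columns without a vehicle array hold no dot.

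Genes that work with the carriers were taken from a list of 92 by role, of which 82 had a cluster with 1 symbol. Of these 82, 6 rose and 20 fell, where 6.99% of all genes rose and 12.9% fell. The median log2 difference of the 82 was -0.19, against 0.037 over all genes by their brightest cluster. The list was chosen with earlier results of these data known, so these counts only describe its genes. Most of them were bright: 23 of the 62 at or above the median signal of tested clusters were called, where 31.9% of such genes were, and 3 of the 20 dimmer ones, where 7.85% were. With all clusters of the table tested, 12 fell instead of 20, and with an intensity trend 10 rose instead of 6. After median centring 8 rose and 14 fell, with 4136 of all tested clusters called. The median log2 difference of the 82 was then -0.028, against 0.20 over all tested clusters. With quantile normalization the median of the 82 was -0.097. No partner gene was called without vehicle replicate 1 or 2, and no other cluster was.

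Among family members with other symbols, UCP2, an uncoupling protein that also carries metabolites, had 4.59 and 4.37 in ornithogalum cells, against 6.74 and 6.81 in vehicle cells. It fell 4.92-fold (difference -2.30, SE 0.13, adjusted p = 0.00336). UCP1, the uncoupling protein of brown fat, had low signals of 3.51 and 3.29 in ornithogalum cells, against 2.86 and 2.87 in vehicle cells (difference 0.53, adjusted p = 0.0477). UCP3, MTCH1 and MTCH2 did not pass, with differences of 0.13, 0.36 and -0.44.

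The subunits of the mitochondrial pyruvate carrier, a separate family, went opposite ways. MPC2 had 7.47 and 7.71 in ornithogalum cells, against 6.67 and 6.52 in vehicle cells (difference 0.99, adjusted p = 0.0111). MPC1 had 4.55 and 4.17 in ornithogalum cells, against 5.17 and 5.00 in vehicle cells (difference -0.72, adjusted p = 0.0444). Other transporters that fell were VDAC3, an outer membrane channel (2.10-fold), MCUB, an inhibitory subunit of the calcium uniporter (2.68-fold), MICU2, a calcium sensor of the uniporter (1.45-fold), SFXN2, a sideroflexin (1.53-fold), and the sodium/calcium exchanger SLC8B1 (1.38-fold, adjusted p = 0.0497). In this list of other mitochondrial transporters 1 of 19 measured rose and 6 fell. Of 13 measured genes that import and insert carriers, TOMM40, the channel of the outer membrane, rose 1.40-fold (adjusted p = 0.0443) and 0 fell.

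Enzymes beside the carriers are described by substrate. In the malate, aspartate and citrate list 1 of 6 rose and 2 fell: GOT1, the cytosolic aspartate aminotransferase, rose 1.87-fold, MDH1, the cytosolic malate dehydrogenase, fell 1.57-fold and ACLY, which splits exported citrate, fell 2.08-fold. GOT2 and MDH2, the mitochondrial forms of these aminotransferase and dehydrogenase enzymes, had differences of -0.071 and 0.28 and did not pass. In the carnitine shuttle CPT2, which acts on the acylcarnitines that SLC25A20 delivers, had 3.43 and 3.66 in ornithogalum cells, against 5.33 and 5.76 in vehicle cells. CPT2 fell 3.99-fold (adjusted p = 0.00452), while CPT1A (-0.41), CPT1C (-0.45) and CRAT (0.0054) did not pass.

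Of 8 measured genes of ornithine and glycine metabolism, 2 fell: GATM, which makes the creatine precursor guanidinoacetate, 2.98-fold, and DLD, a shared subunit of matrix dehydrogenases and the glycine cleavage system, 1.84-fold (adjusted p = 0.0497). In the iron list NFS1, the cysteine desulphurase of iron-sulphur cluster assembly, fell 2.07-fold and ALAS1, which uses glycine for haem synthesis, fell 1.82-fold. LYRM4, a partner subunit of NFS1, had 6.24 and 5.96 in ornithogalum cells, against 4.73 and 4.81 in vehicle cells, and rose 2.51-fold (adjusted p = 0.00566). In the cofactor list 1 of 13 rose and 4 fell. PANK3, a pantothenate kinase, rose 1.81-fold, and PPCS, the next enzyme of coenzyme A synthesis, fell 2.35-fold. NADK2, the mitochondrial NAD kinase, fell 2.79-fold, SHMT2, the mitochondrial serine hydroxymethyltransferase of folate metabolism, 1.95-fold and MAT2A, which makes S-adenosylmethionine, 1.39-fold. Of 7 glutathione enzymes, GSS, the glutathione synthetase, fell 2.09-fold, GSR, the glutathione reductase, fell 1.44-fold and 0 rose.

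**Figure D4:**
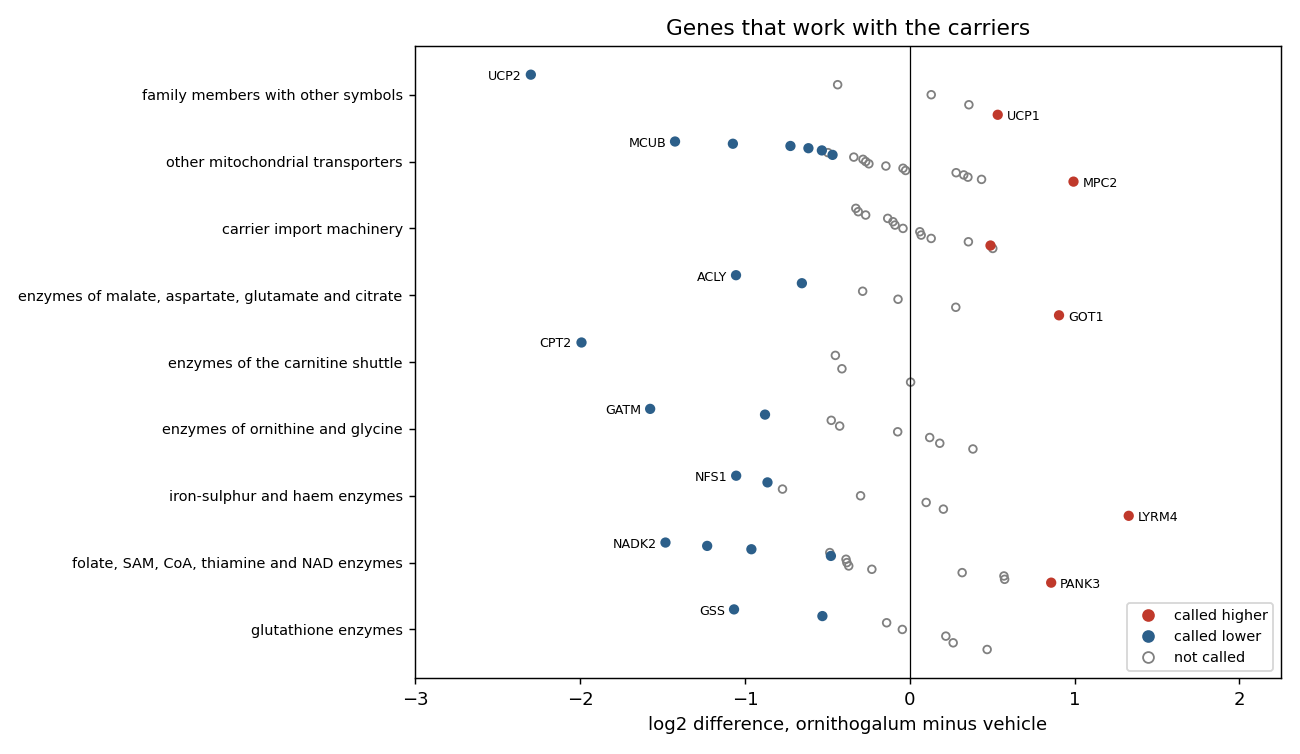
Log2 difference, ornithogalum minus vehicle, of each of the 82 measured genes that work with the carriers, by list (red, called higher; blue, called lower; open, not called); names are given for the end points of a list where they were called. UCP2 at -2.30 lies farthest left, followed by CPT2, and LYRM4 at 1.33 farthest right.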

How the data were processed

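Total RNA of AGS cells was measured on 4 Affymetrix arrays, 2 per group, grouped by sample title. The deposited values are log2 signals; the submitters' processing notes name RMA (robust multi-array averaging) and Affymetrix Expression Console 1.1. Background and scaling options: not given in the sources used here. No depth applies to arrays, and their number limits the precision. The table has 33297 clusters, of which the platform annotation gives 19461 a symbol of their own, 1753 several and 12083 none. Gene numbers matched 19430 of those symbols to RefSeq.

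The fit used lmFit and eBayes of limma 3.58.1 (R 4.3.3), with no trend and no filter on dim clusters, over the 21214 named clusters, with Benjamini-Hochberg adjustment. It was tested on simulated data. Every measured carrier is named, as are all called partner genes. The members, substrate classes, partner list and motifs were chosen with earlier results of these data known. Same-numbered arrays did not deviate together (r = -0.059 over clusters). The 15 alternatives were the replicate block, each array left out, 3 scalings, brighter clusters, 2 variance priors, array weights, 2 sets of clusters and averaged clusters. Of 49 members, 40 had a listed promoter. Proteins, planned for a few carriers, are not shown here.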

Additional observations from a re-analysis of the deposited data

How the results depend on the processing

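With all 33297 clusters tested, the counts were 1 carrier higher and 7 lower, instead of 2 and 11, and 12 partner genes lower instead of 20. Limma called 2644 of those clusters, against 4076 of 21214 in the main fit, and more clusters enter the adjustment there. With the replicate number as a block 1 carrier was higher and 12 lower, and the partner counts were 4 and 15. The arrays share only a number, and 3302 of all tested clusters were called with this block. An intensity trend, with or without a robust prior, gave 10 partner genes higher instead of 6, and the cause was not tested. Over all tested clusters the trend gave 5166 calls, and 5118 with the robust prior. Leaving out each array in turn gave 0 to 5 carriers higher and 0 to 13 lower, and 0 to 9 partner genes higher and 0 to 30 lower, with the counts of 0 in the fits without a vehicle array. The carriers' median log2 difference ran from -0.098 with brighter clusters only to 0.15 with median centring. Its sign turned under median centring, quantile normalization (0.029) and without vehicle replicate 2 (0.010). The value of -0.098 covers only the 30 brighter carriers, and all genes at or above the median signal had a median of -0.071. SLC25A37 reversed where its clusters were averaged (-1.09). All other carriers that were called in any setting kept the direction they have on the deposited values in that setting. The block, array weights, variance priors and sets of clusters leave the differences unchanged, so they could not alter a direction. The signal over background of each probe is not in the table, so which of the dim carriers were detected is not known.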
